A study of Homo sapiens with 4 samples.

Results

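SMAR1, the protein encoded by BANP, is a nuclear matrix protein that binds matrix attachment regions of DNA and recruits histone deacetylase complexes to repress transcription. The distal peaks described here lay inside protein-coding genes, away from promoters, and lacked the alternating repeats that mark much of the SMAR1 peak set. They were the peaks on chromosomes 1 to 22 and X whose centre was more than 1 kb from every annotated transcription start site (TSS) and inside a protein_coding gene, and whose hg19 sequence held no run of at least 12 bp in which T alternates with C or T with G, read on either strand. In HCT116 p53+/+ cells, 679 of 5709 peaks met the rule, 644 with an intron centre and 35 with an exon centre. In HCT116 p53-/- cells, 539 of 8217 peaks met it, 520 with an intron centre and 19 with an exon centre. In all, 1218 of 13926 peaks were members.

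HCT116 is a human colorectal carcinoma line. SMAR1 was immunoprecipitated from the parental line, which carries p53 (p53+/+), and from a derivative that lacks it (p53-/-), and the bound DNA was sequenced (ChIP-seq). With 1 SMAR1 library per cell line, differences between the lines have no replicates and were not tested. IgG samples were not analysed here. Each peak has a MACS score, −10 times the log10 of its p-value, which grows with sequencing depth. Ranks are therefore given within a library, as the percentile among all peaks of the same list. Where raw scores of both lines are printed or drawn side by side, they are not on a common scale. Intervals beside shares are 95% Wilson intervals and reflect counting error alone.

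The sequences of single members are given first, beginning with those that held the BANP element. BANP is known to bind a short palindromic CG-rich element, and its core, CTCGCGAG, occurred in 2 HCT116 p53+/+ and 3 HCT116 p53-/- members. These lay in introns of MAML2, a coactivator of Notch signalling (chr11:95976626-95976811 in HCT116 p53+/+), of GSG1L, an auxiliary subunit of AMPA-type glutamate receptors (chr16:27879070-27879310 in HCT116 p53+/+), and of COL12A1, a chain of type XII collagen (chr6:75913846-75914066 in HCT116 p53-/-). The core is in capitals, and all sequences are the plus strand of hg19.
MAML2: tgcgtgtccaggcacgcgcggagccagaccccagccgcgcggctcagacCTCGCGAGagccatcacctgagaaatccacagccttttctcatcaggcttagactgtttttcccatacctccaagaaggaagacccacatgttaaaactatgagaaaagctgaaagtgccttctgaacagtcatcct
GSG1L: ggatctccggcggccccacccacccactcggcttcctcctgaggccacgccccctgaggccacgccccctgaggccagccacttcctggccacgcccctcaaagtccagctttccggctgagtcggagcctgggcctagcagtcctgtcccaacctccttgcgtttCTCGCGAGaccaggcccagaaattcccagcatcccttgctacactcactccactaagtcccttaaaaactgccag
COL12A1: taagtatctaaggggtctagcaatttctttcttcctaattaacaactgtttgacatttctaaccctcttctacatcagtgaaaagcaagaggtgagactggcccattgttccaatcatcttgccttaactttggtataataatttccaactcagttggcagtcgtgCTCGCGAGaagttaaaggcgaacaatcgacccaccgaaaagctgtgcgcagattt

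The label of these peaks as non-repeat did not hold for most of them. Simple repeats other than the alternating runs were found in 422 of the 679 HCT116 p53+/+ members and in 432 of the 539 HCT116 p53-/- members. Perfect tandem repeats of units of 2 to 6 bases, over at least 12 bp and at least 3 copies, stood in 264 HCT116 p53+/+ members (38.9%, 35.3 to 42.6%) and in 277 HCT116 p53-/- members (51.4%, 47.2 to 55.6%). Interrupted repeats, meaning a run in which T alternates with either C or G over at least 12 bp, or an unbroken stretch of pyrimidines or of purines of at least 20 bp, without a tandem or single-base tract, stood in 126 (18.6%) and 128 (23.7%). A tract of a single base over at least 12 bp, without a tandem repeat, stood in 32 (4.71%) and 27 (5.01%). No simple repeat by these definitions was found in 257 (37.8%, 34.3 to 41.6%) and 107 (19.9%, 16.7 to 23.4%). The peaks are therefore called members of the rule below, and not non-repeat peaks.

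The repeats can be read in the following members, which were among the 10 intron members with the highest scores in their cell line. Capitals mark the perfect tandem tracts. They lie in introns of PTPRB, a receptor tyrosine phosphatase of endothelial cells (chr12:71020154-71020205), and HSF2BP, which binds the heat shock factor HSF2 (chr21:45040586-45040636), both from HCT116 p53+/+, and of BIVM (chr13:103466426-103466468), from HCT116 p53-/-. The central 31 bases of the HSF2BP member occurred 8 times in the genome, and those of the others were not repeated.
PTPRB: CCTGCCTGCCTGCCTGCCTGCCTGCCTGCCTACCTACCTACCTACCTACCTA
HSF2BP: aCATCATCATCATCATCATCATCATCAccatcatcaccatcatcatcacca
BIVM: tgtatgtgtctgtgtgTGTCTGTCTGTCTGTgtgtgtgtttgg

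Other high-scoring members sat just inside the limit of the rule. The RBFOX1 member of HCT116 p53+/+ (chr16:6722369-6722405), in a gene for a splicing regulator, and the HS6ST3 member of HCT116 p53-/- (chr13:96938130-96938172), in a gene for a heparan sulfate sulfotransferase, had alternating runs of 11 bp, shown in capitals. The TMEM178B member of HCT116 p53-/- (chr7:140955842-140955883) fell in the class without a simple repeat although short imperfect copies fill it, so that this class still holds degenerate repeats.
RBFOX1: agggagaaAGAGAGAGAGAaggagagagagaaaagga
HS6ST3: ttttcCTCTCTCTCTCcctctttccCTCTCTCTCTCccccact
TMEM178B: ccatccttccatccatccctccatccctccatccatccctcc

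Gene-body windows gave the background for these sequence classes. They were 1152490 windows of 100 bp, 1 kb apart, with a centre inside a protein_coding gene and more than 1 kb from every TSS, and without a T-and-C or T-and-G run of 12 bp. In the 100 bp around the peak centre, 44% of HCT116 p53+/+ and 55.8% of HCT116 p53-/- members had a tandem repeat, beside 2.84% of the windows. Interrupted repeats stood in 14.4% and 20.6%, beside 1.30%. As a class, the single-base tracts were nearer to the background, with 5.01% in each cell line beside 2.34%. Counted in members of any class, tracts of A or T stood in 4.86% and 3.71%, beside 2.49%. Tracts of C or G, however, stood in 1.48% of HCT116 p53-/- members, beside 0.0102%. No simple repeat was found in 36.5% and 18.6% of members and in 93.5% of the windows.

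**Figure D1:**
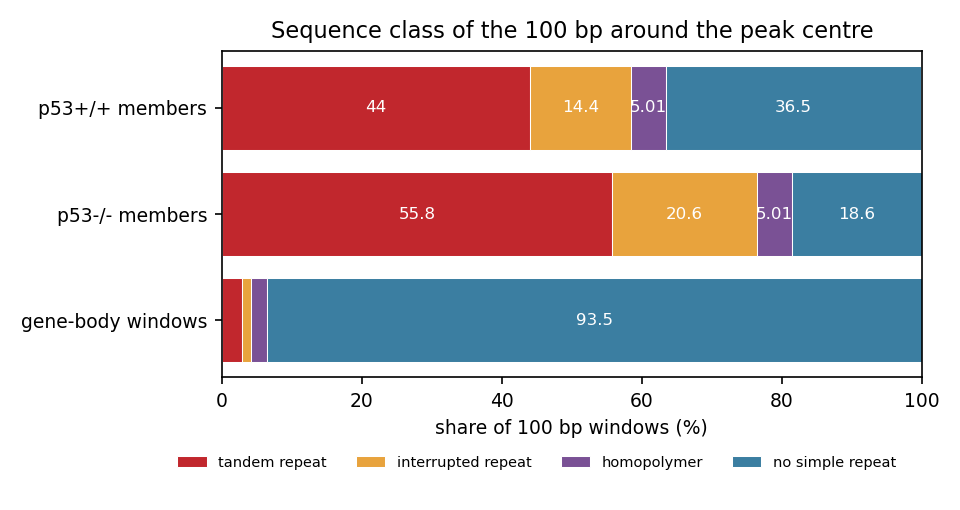
Sequence class of the 100 bp around the centre of the members in each cell line and of gene-body windows, as a stacked share in percent. Tandem and interrupted repeats take most of the 2 upper bars, while 93.5% of the windows in the lower bar had no simple repeat.

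The tandem repeats were of many kinds, with 66 distinct units, single bases included, in HCT116 p53+/+ and 55 in HCT116 p53-/-. The commonest of more than 1 base was AGAGG, which reads CCTCT on the other strand, in 39 HCT116 p53+/+ members (5.74%) and 38 HCT116 p53-/- members (7.05%). In 100 bp around the centre it stood in 5.74% and 6.86% of members, beside 61 of all the windows (0.00529%). Among trinucleotides, AGG was found in 29 HCT116 p53+/+ and 21 HCT116 p53-/- members, and ACC in 25 and 29. ACT, in 14 and 27, and ATC, in 9 and 18, were counted more often in HCT116 p53-/-. The tetranucleotide AGGG was found in 20 and 21 members, and ACAG in 16 and 25. By contrast, ATCC was counted more often in HCT116 p53+/+, in 16 and 8. Units made of purines on one strand and pyrimidines on the other occurred in 115 of 264 members with a tandem repeat in HCT116 p53+/+ and in 100 of 277 in HCT116 p53-/-. The vertebrate telomere unit, written AACCCT, stood in 7 HCT116 p53+/+ and 5 HCT116 p53-/- members, 4 of each shared with the other cell line, and in 6 of all the windows.

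Long stretches of pyrimidines on one strand and purines on the other were common, but less so than in all peaks. Within the peak, 34.3% and 39.3% of members held one of at least 20 bp, beside 39.7% and 53.6% of all peaks on chromosomes 1 to 22 and X. Distal peaks inside coding genes with a T-and-C run held one in 87.3% and 89.2%, and those with a T-and-G run in 0.519% and 0.815%. In 100 bp around the centre, a stretch of at least 20 bp was found in 37.1% (33.6 to 40.8%) of HCT116 p53+/+ and 42.9% (38.7 to 47.1%) of HCT116 p53-/- members, beside 2.23% of the windows. The pyrimidines were on the sense strand of the host gene for 162 of 250 members (64.8%, 58.7 to 70.5%) in HCT116 p53+/+ and for 153 of 229 (66.8%, 60.5 to 72.6%) in HCT116 p53-/-. The same share was 58.7% over the windows with such a stretch, which is at the lower bound of the first interval and under the second. Distal peaks inside coding genes that held a T-and-C run had their pyrimidines on the sense strand in 52.8% (48.6 to 56.9%) and 53.6% (50.9 to 56.3%), and windows with such a run in 53.9%. Within the peaks themselves, the share among members was 63.4% (71 of 112) for tandem and 66.0% (62 of 94) for interrupted repeats in HCT116 p53+/+, and 66.7% (64 of 96) and 70.7% (65 of 92) in HCT116 p53-/-. For single-base tracts it was 52.0% (13 of 25) and 52.2% (12 of 23).

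The central 31 bases of 198 HCT116 p53+/+ members (29.2%, 25.9 to 32.7%) and 168 HCT116 p53-/- members (31.2%, 27.4 to 35.2%) occurred more than once in the genome, beside 13.6% of the windows. For distal peaks in coding genes with a T-and-C run the shares were 55.2% and 63.1%, and with a T-and-G run and no T-and-C run 75.4% and 78.0%. Within the members, repeated centres were found in 40.2% and 43.3% of those with a tandem repeat and in 22.2% and 18.7% of those with no simple repeat. The median GC content of the 100 bp around the centre was 50% in both cell lines, beside 40% over the windows. It was 48% and 47% over all peaks on chromosomes 1 to 22 and X. For distal peaks in coding genes it was 48% and 47% with a T-and-C run, and 46% and 45% with a T-and-G run.

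**Figure D2:**
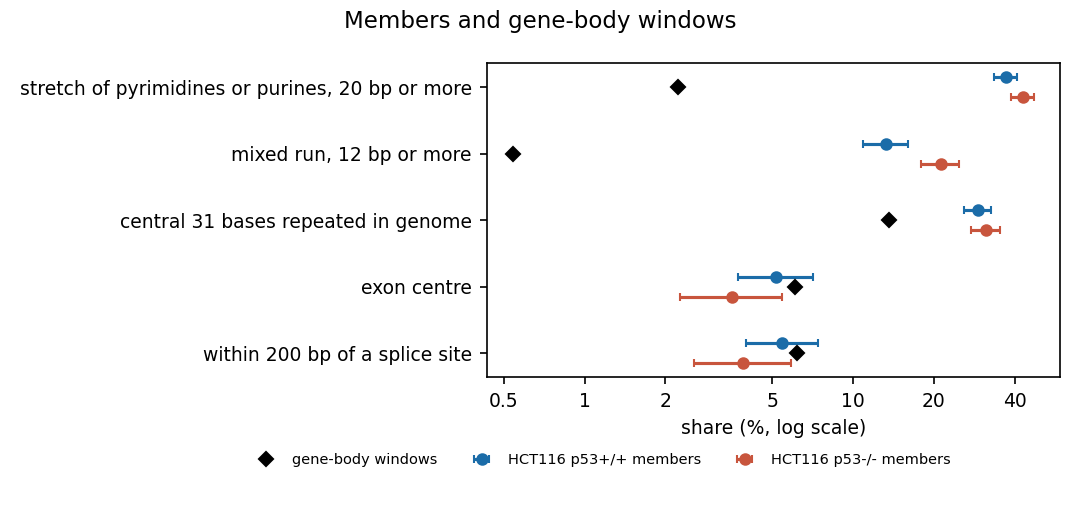
Share of members with each feature, in percent on a log scale, for HCT116 p53+/+ (blue) and HCT116 p53-/- (red) with 95% Wilson intervals, and for gene-body windows (black diamonds). Pyrimidine or purine stretches, mixed T(C/G) runs (13.3% and 21.2% beside 0.539%) and repeated centres were more frequent in members, while exon centres and nearness to a splice site lay below the windows in HCT116 p53-/- and had intervals that held the window value in HCT116 p53+/+.

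Most short motifs were not more frequent in the members than in gene bodies. Motifs were searched on both strands in 100 bp around the centre and compared with 11525787 windows of the same length tiled over the same gene bodies. CGCG stood in 13 HCT116 p53+/+ (1.91%, 1.12 to 3.25%) and 14 HCT116 p53-/- members (2.60%, 1.55 to 4.31%), beside 1.71%. All 13 of the former and 7 of the latter had no simple repeat. The E-box CANNTG, bound by basic helix-loop-helix factors, stood in 24.6% and 17.3% beside 40.1%, the AP-1 site TGANTCA in 1.33% and 0.371% beside 3.02%, and AATAAA, the polyadenylation signal, in 7.51% and 4.64% beside 17.7%. The ETS core CCGGAA (1.03% and 0.557% beside 0.600%) and TTAGGG (2.95% and 3.71% beside 3.50%) lay around their background. The consensus of 10 bases bound by p53 was found in 6 members of each cell line (0.884% and 1.11%) beside 2.46%. The 5 with the highest scores in HCT116 p53+/+ were in TTC28, ANKRD30BL, ATXN7L1, BRINP3 and SUN1, and in HCT116 p53-/- in ELK3, CAMTA1, SH3BP4, CACNB2 and TLN2.

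The BANP core CTCGCGAG contains CGCG and was the motif furthest above its background. It stood in 1 HCT116 p53+/+ (0.147%, 0.0260 to 0.829%) and 2 HCT116 p53-/- members (0.371%, 0.102 to 1.34%) within 100 bp, beside 611 of all tiled windows (0.00530%). Over the whole peak it stood in 2 and 3 members (0.295% and 0.557%). Near a TSS it was far more frequent, in 95 of 795 HCT116 p53+/+ peaks (11.9%) and 137 of 1333 HCT116 p53-/- peaks (10.3%) centred within 1 kb. The MAML2 and GSG1L members printed above were called in both cell lines. The GSG1L member had the highest score of all HCT116 p53-/- members (521.72, percentile 97.6) and a score of 95 (percentile 81.2) in HCT116 p53+/+. The MAML2 member scored 285.88 (percentile 96.1) and 128.91 (percentile 93.3), respectively. The COL12A1 member was called in HCT116 p53-/- only, with a score of 58.65 (percentile 18.5).

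Members had middling scores. The median score was 65.73 (64.48 to 66.92), at percentile 44.3, in HCT116 p53+/+, and 69.54 (66.78 to 72.80), at percentile 44.6, in HCT116 p53-/-. The scores ran from 50 to 254.42 in the former and from 50.03 to 521.72 in the latter, and 76 members (11.2%) and 83 members (15.4%) scored at least 100. Of all peaks on chromosomes 1 to 22 and X, 16.8% and 20.4% did so, and of all distal peaks inside coding genes 14.3% and 14.9%. Since the score grows with depth, these shares are to be read within each list and not between the lists. For peaks in coding genes with a T-and-C run the median percentile was 44.7 and 49.1. For peaks with a T-and-G run it was 60.6 in HCT116 p53+/+, above the members, and 34.6 in HCT116 p53-/-, below them. Many scores were tied, as in the 15 HCT116 p53+/+ members at 73.66 (49 to 59 bp long) and the 25 HCT116 p53-/- members at 81.61 (37 to 55 bp long).

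Members were short, as were all peaks. Their median length was 65 bp (32 to 464 bp) in HCT116 p53+/+ and 58 bp (32 to 737 bp) in HCT116 p53-/-. Over all peaks on chromosomes 1 to 22 and X it was 60 and 61 bp. Of the members, 27 (3.98%) and 41 (7.61%), respectively, reached 200 bp, beside 7.24% and 9.27% of all those peaks. Among distal peaks inside coding genes, 4.29% and 2.64% of those with a T-and-C run did so. With a T-and-G run, 0.346% and 0.408% did. Lengths of the class without a simple repeat differed between the lists. In HCT116 p53+/+, 157 of its 257 members (61.1%, 55.0 to 66.8%) were 60 to 95 bp long, and in HCT116 p53-/- 28 of 107 (26.2%, 18.8 to 35.2%). In the other classes this range held 23.7% and 24.8%, so the gathering at these lengths was seen in 1 class of 1 library. The 157 peaks had a median score of 62.51, came from all 23 chromosomes analysed, and only 2 overlapped a HCT116 p53-/- peak (1.27%), beside 11 of the 100 members of their class with other lengths (11%). The range of 60 to 95 bp was chosen after the values were seen, and cell line and library cannot be told apart.

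**Figure D3:**
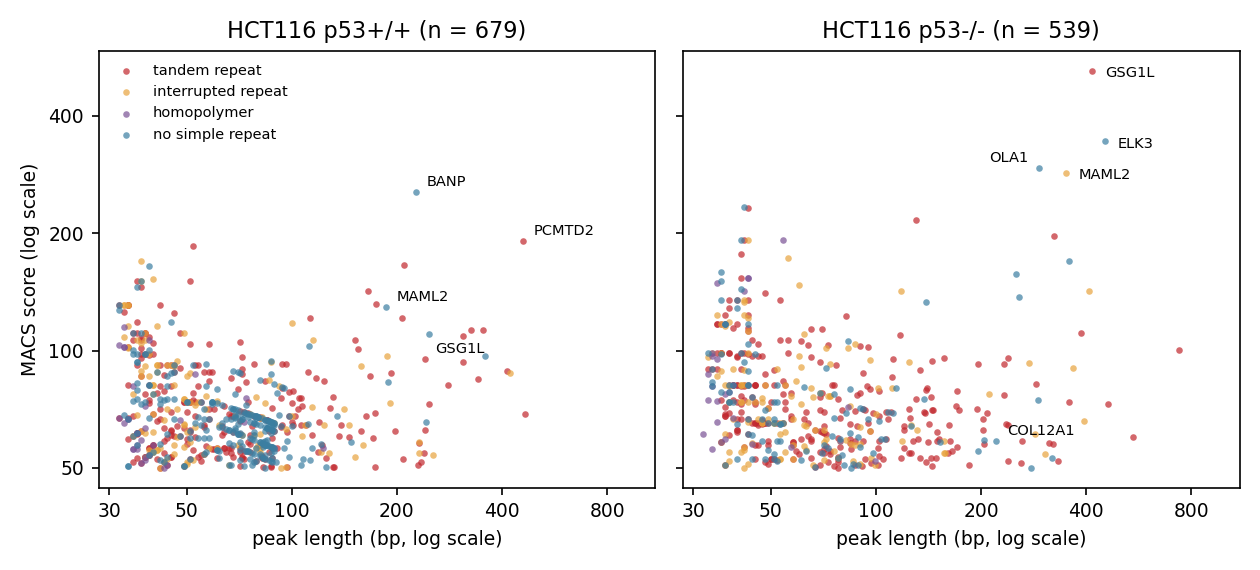
MACS score against peak length for each member, both on log scales, in HCT116 p53+/+ (left) and HCT116 p53-/- (right), coloured by sequence class. The blue points gathered between 60 and 95 bp on the left are the 157 members without a simple repeat, and most points on the right of each panel are long peaks with a tandem repeat.

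The highest-scoring HCT116 p53+/+ member lay in BANP, the gene of SMAR1 itself, over a coding exon (chr16:88037844-88038070, score 254.42, percentile 98.9). Its sequence is printed with the 117 exon bases in capitals, between intron bases on either side.
BANP: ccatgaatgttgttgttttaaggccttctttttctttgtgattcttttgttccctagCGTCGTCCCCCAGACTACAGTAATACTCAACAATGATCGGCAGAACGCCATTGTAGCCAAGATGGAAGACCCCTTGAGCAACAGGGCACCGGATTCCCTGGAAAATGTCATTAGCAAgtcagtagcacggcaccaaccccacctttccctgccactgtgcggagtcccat

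BANP, on the plus strand of chromosome 16 (chr16:87982850-88110924), held 4 members in HCT116 p53+/+, all with exon centres. Besides the one printed, a peak of 247 bp (chr16:88052031-88052277, score 110.14) covered the 240 bp of the coding exon chr16:88052034-88052273 and passed its edges by 3 and 4 bp. Another (chr16:88008680-88008791, score 102.55) lay wholly in a coding exon and ended at the last base of its shortest annotated form. The fourth (chr16:88110527-88110617, score 77.69) was in the 3′UTR. A pair of further HCT116 p53+/+ peaks in BANP also had exon centres but were within 1 kb of a TSS, at 25 bp (score 134.47) and 514 bp (score 93.39), and so are not members. In HCT116 p53-/-, BANP held 1 member (chr16:88008690-88008841, score 58.37, percentile 17.3), which overlapped the HCT116 p53+/+ peak in the same coding exon, and the peak 23 bp from the TSS (score 243.84). The coding exon with the highest score in HCT116 p53+/+ had no HCT116 p53-/- peak. The central 31 bases of each of these peaks occur once in the genome.

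**Figure D4:**
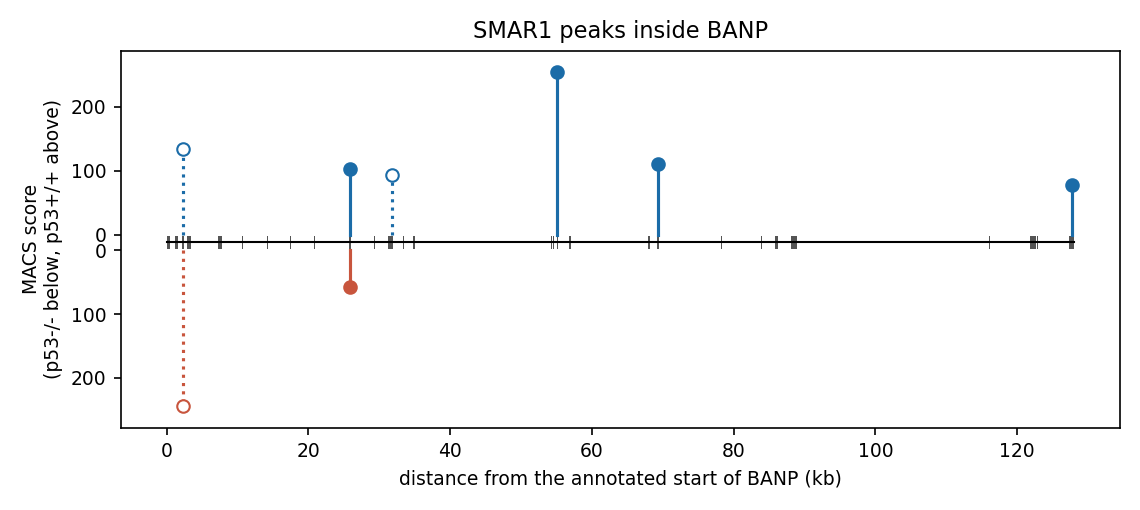
SMAR1 peaks inside BANP by distance in kb from the annotated start of the gene, with the MACS score as the distance from the gene line, HCT116 p53+/+ upwards (blue) and HCT116 p53-/- downwards (red). Scores depend on sequencing depth, so heights above and below the line are not on a common scale. Grey boxes are exons, filled circles are members and open circles are peaks within 1 kb of a TSS; 6 peaks stand above the line and 2 below it.

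The remaining exon members were scattered. In HCT116 p53+/+, the 35 exon members comprised 14 in coding sequence (2.06%, 1.23 to 3.43%), 16 in 3′UTRs and 5 in exons of noncoding transcripts, and in HCT116 p53-/- the 19 comprised 6 in coding sequence (1.11%, 0.511 to 2.41%), 8 in 3′UTRs, 1 in a 5′UTR and 4 in noncoding exons. Exon centres made up 5.15% (3.73 to 7.08%) and 3.53% (2.27 to 5.44%) of members beside 6.07% of the windows, and coding sequence 1.96% of the windows. After BANP, the highest HCT116 p53+/+ scores were in SUPT20HL2 (coding sequence, an AGCAGG repeat, 108.16) and in the 3′UTR of SLC6A15, a neutral amino acid transporter (an ACT repeat, 101.96). The highest HCT116 p53-/- scores were in a noncoding exon of PHACTR1, a regulator of actin and protein phosphatase 1 (192.42), in the coding sequence of SKOR2, a co-repressor of the SKI family (an ACC repeat, 96.56), in noncoding exons of ADAM17, a membrane-bound protease (81.61), and of YJEFN3 (81.32), and in the 3′UTR of RPS6KA6, a kinase of the RSK family (an ACT repeat, 77.59). The central 31 bases of the RPS6KA6 member occurred 356 times in the genome, and those of the other exon members named here were not repeated. Of the 35, 24 had no simple repeat, as had 7 of the 19. Members centred within 200 bp of a splice site numbered 37 (5.45%, 3.98 to 7.42%) and 21 (3.90%, 2.56 to 5.88%), beside 6.20% of the windows.

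The intron members with the highest HCT116 p53+/+ scores, after those already named, were in PCMTD2 (191.03, a peak of 460 bp with the telomere unit), FBXW11, a substrate receptor of the SCF ubiquitin ligase (169.53), CDK14, a cyclin-dependent kinase (165.81), GOLGA4, a golgin (164.99), DPP6, an auxiliary subunit of Kv4 potassium channels (152.60), and TTC28 and CDH18, a cadherin (150.52 each). The PCMTD2, CDK14 and CDH18 members overlapped HCT116 p53-/- peaks and the others here did not. The central 31 bases occurred 521 times in the genome for CDK14, 73 times for TTC28 and 2 times each for PCMTD2 and CDH18. Those of FBXW11, GOLGA4 and DPP6 were not repeated. In HCT116 p53-/-, ELK3, a transcription factor of the ETS family (343.53, 453 bp), and OLA1, an Obg-like ATPase (293.17, 292 bp), followed GSG1L. Neither had a simple repeat. TMEM178B (233.61), BIVM (232.54), DLGAP2, a scaffold of the postsynaptic density (216.63), DLEC1 (196.53), and CCDC60 and HS6ST3 (192.42 each) came after MAML2. The OLA1 member was also called in HCT116 p53+/+, over 39 bp and with a score of 81.47. Of the HCT116 p53-/- intron members named here, only that of DLGAP2 had repeated central 31 bases, at 3 copies.

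Overlap with the other cell line was asked next. In HCT116 p53+/+, 78 of 679 members (11.5%, 9.30 to 14.1%) overlapped a HCT116 p53-/- peak by at least 1 bp, beside 20.2% of the whole list. Of the HCT116 p53-/- members, 70 of 539 (13%, 10.4 to 16.1%) overlapped a HCT116 p53+/+ peak, beside 13.5% of the whole list, so that this share lay at its background. Distal peaks inside coding genes with a T-and-C run were shared in 27.5% (24.2 to 31.1%) and 12.1% (10.6 to 13.9%), and those with a T-and-G run in 6.75% (4.97 to 9.09%) and 5.43% (4.02 to 7.32%). Of the 78 HCT116 p53+/+ members, 71 overlapped a member, 5 a T-and-C peak and 2 a T-and-G peak, and all 70 HCT116 p53-/- members overlapped a member. Members with a tandem repeat were shared in 16.3% (43 of 264) and 16.6% (46 of 277), those with an interrupted repeat in 15.1% and 10.9%, and those without a simple repeat in 5.06% (13 of 257, 2.98 to 8.46%) and 6.54% (7 of 107, 3.20 to 12.9%). Shared members were longer, with medians of 93 and 120 bp beside 62 and 54 bp for the rest. Their central 31 bases were repeated in 38.5% and 38.6%, beside 28% and 30.1%.

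**Figure D5:**
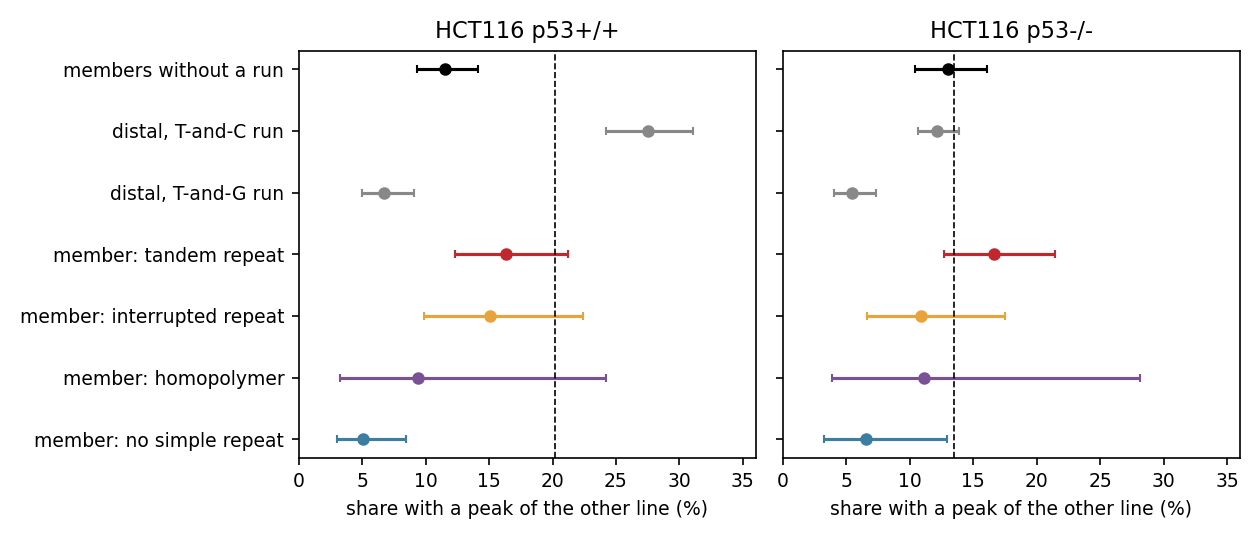
Share of peaks that overlap a peak of the other cell line, in percent with 95% Wilson intervals, for the members (black), for distal T-and-C and T-and-G peaks inside coding genes (grey) and for the members of each sequence class. Dashed lines mark the whole list, at 20.2% (left) and 13.5% (right), and the members without a simple repeat stand at 5.06% and 6.54%.

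Of the 71 overlapping pairs of members, 62 had the same sequence class and 10 shared an edge to the base. Classes were read from the reference sequence, which overlapping peaks share, so that agreement in class is not independent of the overlap. After MAML2, the pairs with the highest mean percentile were in DLEC1 (109.02 in HCT116 p53+/+ and 196.53 in HCT116 p53-/-), GSG1L, ARHGEF10, a guanine nucleotide exchange factor (113.09 and 110.92), OLA1, ATXN7L1 (92.36 and 89.84), PCMTD2 (191.03 and 73.09), SRBD1 (106.70 and 79.05), FAM83F (112.78 and 73.97) and PFKP, the platelet phosphofructokinase (68.82 and 118.53). As percentiles, DLEC1 stood at 87.4 and 94.5, ARHGEF10 at 90.6 and 83.1, and ATXN7L1 at 80.3 and 70.8. PCMTD2 stood at 97.9 and 48.4, FAM83F at 90.6 and 51.1, PFKP at 52.4 and 86.7, and SRBD1 at 85.6 and 56.9. In the pairs from PCMTD2 on, a high rank in one list went with a middling one in the other. The SRBD1 and FAM83F pairs were AGAGG repeats.

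Long genes held about as many members as their share of the sequence. HCT116 p53+/+ members lay in 629 genes and HCT116 p53-/- members in 508, and 131 genes had a member in both, 20.8% and 25.8% of each. The same share over genes with any peak is not given here, so these values have no background to be read against. Genes of at least 500 kb make up 22.5% of the eligible gene body and held 21.9% (19 to 25.2%) and 18.9% (15.8 to 22.4%) of the members, the latter interval ending just under the share of bases. The genes with the most HCT116 p53+/+ members were RBFOX1 (5), BANP (4), KIRREL3, an adhesion molecule (4), ANKRD30BL (3) and AUTS2 (3), and in HCT116 p53-/- CCDC60, DMD, the dystrophin gene, NFATC1, a calcineurin-dependent transcription factor, and PTPRG, a receptor tyrosine phosphatase, had 3 each. In all, 14 and 4 genes, respectively, reached 3. RBFOX1 has 2.40 Mb of eligible sequence and BANP 0.104 Mb.

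Over all protein_coding genes there were 0.585 HCT116 p53+/+ and 0.464 HCT116 p53-/- members per Mb of the 1161 Mb of eligible gene body. Cell adhesion and synaptic genes were the list with most members, at 55 and 39. They lay in 41 and 30 of the 109 genes, among them DPP6, CDH18, GRM5 and CNTN4 in HCT116 p53+/+ and DLGAP2, TENM1, CDH20 and MAGI2 in HCT116 p53-/-, but per Mb the list was close to all genes, at 0.671 (exact Poisson interval 0.505 to 0.873) and 0.476 (0.338 to 0.650). Ion channel genes had 16 and 12 members (0.671 and 0.503 per Mb), in ANO4, TRPM6, KCNIP1 and CACNA2D3 and in KCNQ1, CACNA1C, TRPC6 and CACNB2, among others. Splicing regulators had 7 (0.872 per Mb, 0.351 to 1.80) and 4 (0.498 per Mb, 0.136 to 1.28), in RBFOX1 and SRRM4 in both lists and in KHDRBS3 in HCT116 p53+/+. RBFOX1 alone held 5 of the 7 and 2 of the 4.

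Lists of signalling genes and p53 targets rest on 7 members or fewer each. The WNT pathway had 7 in HCT116 p53+/+ (1.24 per Mb, 0.499 to 2.56), among them ROR2, WNT5B, SFRP4 and WNT7A, and 2 in HCT116 p53-/- (0.355 per Mb), in TCF7L1 and ROR1. The TGF-beta and BMP pathway had 2 (0.523 per Mb), in SKI and SMURF1, and none in HCT116 p53-/- (interval up to 0.965 per Mb). Receptor tyrosine kinase and RAS genes had 3 (0.275 per Mb), in ERBB4, NTRK2 and EPHB2, and 5 (0.458 per Mb), among them EPHA6, NTRK3, MAPK10 and NRAS. Targets of p53 had 2 (1.59 per Mb, 0.193 to 5.76), in SPATA18 and TGFA, and 1 (0.797 per Mb, 0.0202 to 4.44), in TNFRSF10B. Genes with a ZNF symbol, mostly zinc finger transcription factors, had 5 members (0.263 per Mb, 0.0854 to 0.614) and 9 (0.474 per Mb, 0.217 to 0.899), in ZNF536, ZNF157, ZNF514 and ZNF652 and, among others, in ZNF365, ZNF385B, ZNF415 and ZNF337. Each of these lists had an interval that held the value over all genes in the same cell line.

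Chromosomes differed in their density of members. In HCT116 p53+/+ it ran from 0.369 per Mb on chromosome 15 to 1.31 on chromosome 21 (16 members) and 1.16 on chromosome 16 (39 members, 4 of them in BANP). The HCT116 p53-/- density ran from 0.222 on chromosome 3 (20 members) and 0.245 on chromosome 21 (3 members) to 0.861 on chromosome 19 (22 members). Chromosomes 21 and 3 (0.511 in HCT116 p53+/+, 46 members) thus had lower densities in HCT116 p53-/-. Chromosome 18 had a higher one, at 0.746 (20 members) beside 0.410 (11 members). Over all chromosomes the density was 0.464 in HCT116 p53-/- beside 0.585. No intervals were computed for single chromosomes, and these differences between the lists were not tested.

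Peaks just inside and just outside the limits of the rule had the following values. Among distal peaks inside coding genes, those with a longest alternating run of 11 bp, which are members, numbered 56 and 86, with median scores of 72.19 and 74.27, and those with a run of 12 bp, which are not, numbered 34 and 57, with 67.98 and 72.29. Runs of 10 or 11 bp were found in 91 (13.4%) and 130 (24.1%) members. A qualifying run within the 200 bp around the centre, lying outside the peak or crossing its edge, was found in 46 (6.77%) and 35 (6.49%). Peaks inside coding genes without a run that lay within 1 kb of a TSS but no more than 250 bp inside that limit numbered 29 and 19, with median scores of 65.21 and 69.53. Those up to 250 bp beyond it, which are members, numbered 21 and 12, with 66.77 and 68.56.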

How the data were processed

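SMAR1 ChIP-seq peaks of 2 libraries, 1 per HCT116 line, were used. The authors trimmed reads with cutadapt 1.2.1, aligned them to hg19 with Bowtie2 2.2.1, used SAMtools and called peaks with MACS 1.4.2 per library, and filtered on fold enrichment. The deposited score is that of MACS (−10 times log10 of the p-value), not scaled for depth. The lists hold no reads, so depth per peak is unknown, and the HCT116 p53-/- library had more uniquely aligned reads. An IgG immunoprecipitation was made alongside, and whether MACS used it as control is not given in the sources used here.

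Peaks were placed on GRCh37, which has the chromosome lengths of hg19, with GENCODE release 44 mapped to it, using 1-based coordinates. Copies of the central 31 bases on either strand, TSS and splice distances were computed at the peak centre. Overlap (at least 1 bp) was computed from the whole peaks. Runs, stretches and sequence classes were read over the whole peak, except where a window around the centre is stated. Sequences were read from GRCh37. The functions for runs, stretches, the BANP core and copies of 31 bases were tested on simulated data. Each of 2000 items was called correctly in 100% of cases. For tandem tracts, the test asked only whether a planted tract of 1 unit length was found, and it always was. False calls of tandem tracts, their units, overlap, TSS and splice distances and the assignment of sequence classes were not tested on simulated data. The background for sequence classes was 100 bp windows 1 kb apart, and for motifs the same windows end to end. No p-value was computed, since peaks are not replicates.

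Genes are named as the 5 exon and 10 intron members with the highest scores in each list, the 10 shared members with the highest mean percentile, the 5 genes with most members, up to 4 genes per list and up to 5 members with the BANP core or the p53 consensus. BANP was described further after its values were seen. The members, gene lists and comparisons were chosen with earlier results of these data known. Alternatives were other run lengths, TSS distances, score, copy and chromosome limits, overlap rules and windows. Computing used numpy 2.4.6, scipy 1.17.1 and pandas 2.3.3 in Python 3.11.15, with numba 0.67.0, and plots matplotlib 3.10.9. Some genes and sequences that these rules select are not reported here.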

Additional observations from a re-analysis of the deposited data

Results flagged for a closer look

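The T-and-G peaks inside coding genes stood on opposite sides of the members in the 2 lists. Their median score percentile was above that of the members by 16.3 percentile points in HCT116 p53+/+, and the same difference was -9.97 in HCT116 p53-/-. The difference between the cell lines was not tested, as each has 1 library, and cell line and library cannot be told apart.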

How the results depend on the processing

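Of 184 values recomputed under other settings, 146 stayed within the counting interval of the reported value or, for numbers of members, within 1.5 times it. A minimum alternating run of 16 bp gave 839 HCT116 p53-/- members, and the share with a pyrimidine or purine stretch was then 38.2% and 46.0% (HCT116 p53+/+ first here and below). A minimum of 10 bp gave 30.4% for that share in HCT116 p53+/+ and 36.9% repeated centres in HCT116 p53-/-. Stretches of 15 bp were held by 38% and 45.1% and stretches of 30 bp by 25.5% and 28.4%. Peaks at or above the list median numbered 292 and 243, with 15.1% and 9.88% shared, median percentiles of 71.9 and 72.5 by construction, and 38% with a stretch in HCT116 p53+/+. Counting coding sequence alone, exon centres were 2.06% and 1.11%. The median GC content was 48.5% in both lines over 200 bp and 52.1% and 52.4% over the peak, and CGCG stood in 4.57% and 4.64% over 200 bp.

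Further settings were chosen after seeing the data. Members without a simple repeat, 257 and 107, had 9.34% and 6.54% exon centres, 5.06% and 6.54% shared, 22.2% and 18.7% repeated centres, 0 with a stretch by definition, 5.06% and 6.54% with CGCG, and 9.34% and 8.41% within 200 bp of a splice site. The values for exon centres and splice nearness were thus, without regard to counting error, above the window shares of 6.07% and 6.20%, where those of all members lay below them. In HCT116 p53-/-, the exon share was 7 of 107 members (3.20 to 12.9%), an interval that held the window share. No interval is given for splice nearness in this class, nor for its exon share in HCT116 p53+/+. That exon share counts members in BANP and was not computed without them. For all HCT116 p53+/+ members, the intervals of both measures held the window shares. Over all members without the peaks in BANP, exon centres were 4.59% and 3.35%. The cause of these shifts was not tested.

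No paired analysis was possible because each cell line has 1 SMAR1 library, and for the same reason leaving out a library was not possible. Peak lists hold no reads, and the files show neither depth per peak nor how repeated sequence was mapped. Counting intervals treat peaks as independent and omit variation between libraries.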
